A study of Mus musculus with 23 samples.

Results

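The 43 genes described here encode complement and coagulation factors, most of which the liver secretes, together with their inhibitors. They were taken by symbol from a list chosen with earlier results of these data known. They are 43 of the 24440 genes in the count table. All 43 passed the filter on low counts that left 12891 genes for testing. They fall into 9 groups by role, from complement activation to fibrinolysis.

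The data are RNA-seq counts from perfused livers of 23 male mice on a C57Bl/6 background, 1 library per mouse. The mice came from Taconic Farms when 6 to 8 weeks old, and ate 1 of 2 diets for 15 weeks. The high-fat diet (HFD) drew 60% of its energy from fat, and the other diet was normal chow. The groups were dKO_HFD (IL-10/IL-4 double knockout, 4 mice), dKO_chow (4), IL4KO_HFD (IL-4 knockout, 3), IL4KO_chow (4), WT_HFD (wild type, 4) and WT_chow (4). By label, the dKO and IL4KO groups share the loss of IL-4, and no group lacks IL-10 alone.

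Complement is a cascade of plasma proteases. The classical and lectin pathways start it through C1, mannose-binding lectins and their serine proteases, the alternative pathway amplifies it through C3, factor B and factor D, and the terminal components assemble the membrane attack complex. Coagulation is a second protease cascade that ends with thrombin cutting fibrinogen into fibrin, and antithrombin, protein C and plasmin hold it back. Hepatocytes make most of these proteins, and fibrinogen and C3 are classical acute phase proteins whose genes respond to interleukin-6.

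The fibrinogen chains were higher and F13b was lower in dKO than in WT on chow, although all 4 belong to the same role group, so the 250 bases before the annotated start of these 4 genes are shown. The sequences are from RefSeq on GRCm38.p6, 5′ to 3′ on the strand of the gene, with 2 motifs in capitals on either strand: CTGGGAA, the core of the interleukin-6 response element of fibrinogen genes, and GTTAAT, part of the site of the hepatocyte factor HNF1.
Fga, chr3:83025903-83026152, plus strand: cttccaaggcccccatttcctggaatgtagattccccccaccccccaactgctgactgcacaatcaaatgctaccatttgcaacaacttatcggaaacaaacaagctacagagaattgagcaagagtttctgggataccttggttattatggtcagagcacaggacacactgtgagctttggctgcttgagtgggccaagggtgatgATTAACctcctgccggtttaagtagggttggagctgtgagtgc
Fgb, chr3:83049864-83050113, minus strand: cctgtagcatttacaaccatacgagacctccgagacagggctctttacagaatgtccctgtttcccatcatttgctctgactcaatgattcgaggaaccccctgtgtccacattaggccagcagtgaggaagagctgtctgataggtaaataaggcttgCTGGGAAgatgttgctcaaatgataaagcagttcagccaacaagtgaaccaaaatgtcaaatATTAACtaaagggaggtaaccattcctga
Fgg, chr3:83007474-83007723, plus strand: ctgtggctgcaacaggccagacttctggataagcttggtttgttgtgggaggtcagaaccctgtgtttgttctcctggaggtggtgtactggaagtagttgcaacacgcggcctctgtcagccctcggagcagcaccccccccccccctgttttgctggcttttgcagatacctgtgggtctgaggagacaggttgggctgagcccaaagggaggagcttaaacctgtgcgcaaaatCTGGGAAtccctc
F13b, chr1:139501457-139501706, plus strand: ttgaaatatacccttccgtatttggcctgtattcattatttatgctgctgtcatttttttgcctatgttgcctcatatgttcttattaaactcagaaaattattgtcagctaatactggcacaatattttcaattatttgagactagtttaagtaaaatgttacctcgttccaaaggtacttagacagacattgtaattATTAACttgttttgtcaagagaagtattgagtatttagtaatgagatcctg
In these windows CTGGGAA stood at -91 in Fgb and -13 in Fgg, with no match in Fga and F13b, giving the first base of the match and counting the last base before the start as -1. GTTAAT stood at -43 in Fga, -29 in Fgb and -51 in F13b, with no match in Fgg. Starts annotated by GENCODE lie inside the printed Fga and F13b windows, and in Fga the GTTAAT match lies after that start. A window was present for 34 of the 43 genes. CTGGGAA was in 5 of the 34, against 9.1% of all 32851 windows of the same length, and GTTAAT was in 11 of the 34, against 6.43% of all windows. For the other motifs searched, TTCNNNGAA (the STAT type) was in 6 of the 34 and 7.02% of all windows, TTGCNNAA (the C/EBP type) in 8 and 9.56%, and CAAAGT (part of the HNF4 site) in 7 and 12.6%. A CTGGGAA match and a TTCNNNGAA match overlapped in Masp2 and F9. Each match is only a match of letters.

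The targeted genes were read first. Il10, the gene of an anti-inflammatory cytokine, had 6, 8, 17 and 21 counts in the dKO_HFD libraries and 41, 67, 41 and 64 in the dKO_chow libraries, against 0 in IL4KO_HFD, 0 to 2 in IL4KO_chow, 0 to 4 in WT_HFD and 0 to 2 in WT_chow. All 8 libraries with the dKO label thus held more Il10 counts than any other library. Counts per gene do not show which exons were read, so they cannot tell whether the label holds. Below, dKO names a group by its label. Il4 had 0 to 3 counts in each library and checks little.

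Library totals ran from 7114454 to 30205070 counts, with 16220799 to 30205070 counts in dKO_chow and 7788331 to 8935346 counts in IL4KO_HFD. The 43 genes took 4.203% to 8.012% of the counts in dKO_HFD libraries and 8.703% to 9.522% in dKO_chow, against 3.395% to 5.482% in IL4KO_HFD, 4.624% to 6.383% in IL4KO_chow, 3.657% to 4.303% in WT_HFD and 4.952% to 6.676% in WT_chow. Levels are given as CPM (the counts of a gene relative to its scaled library total), and fold changes are log2 from edgeR's quasi-likelihood fit. A fold change is that of the first group named over the second, so a negative one means lower in the first. A gene is called at a false discovery rate (FDR) below 0.05 over all 12891 genes. The shares above depend most on the genes with the highest counts. Fga, Fgb, Fgg and C3 averaged 14508, 12095, 9260 and 16624 CPM in dKO_chow, against 7199, 5849, 4648 and 9164 CPM in WT_chow. The shares thus do not show that the 43 genes rose together.

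Of the 23 libraries, 3 were set against the others of their groups, and no such count is given for the rest. dKO_HFD replicate 4 lay above the other 3 dKO_HFD libraries for 32 of the 43 genes and below them for 7, and it was nearer to the dKO_chow mean than to that of its own diet for 33. IL4KO_HFD replicate 2 lay below both other IL4KO_HFD libraries for 39 genes, and IL4KO_HFD replicate 3 lay above both for 40. IL4KO_HFD replicate 3 was nearer to the IL4KO_chow mean than to that of its own diet for 39 genes, and replicate 2 for 10. In a group of 3 libraries, some library is always the lowest and another the highest for a gene. The levels of all 43 genes by library are shown in the heatmap. Some of the results that rest on these libraries are given with and without them.

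**Figure D1:**
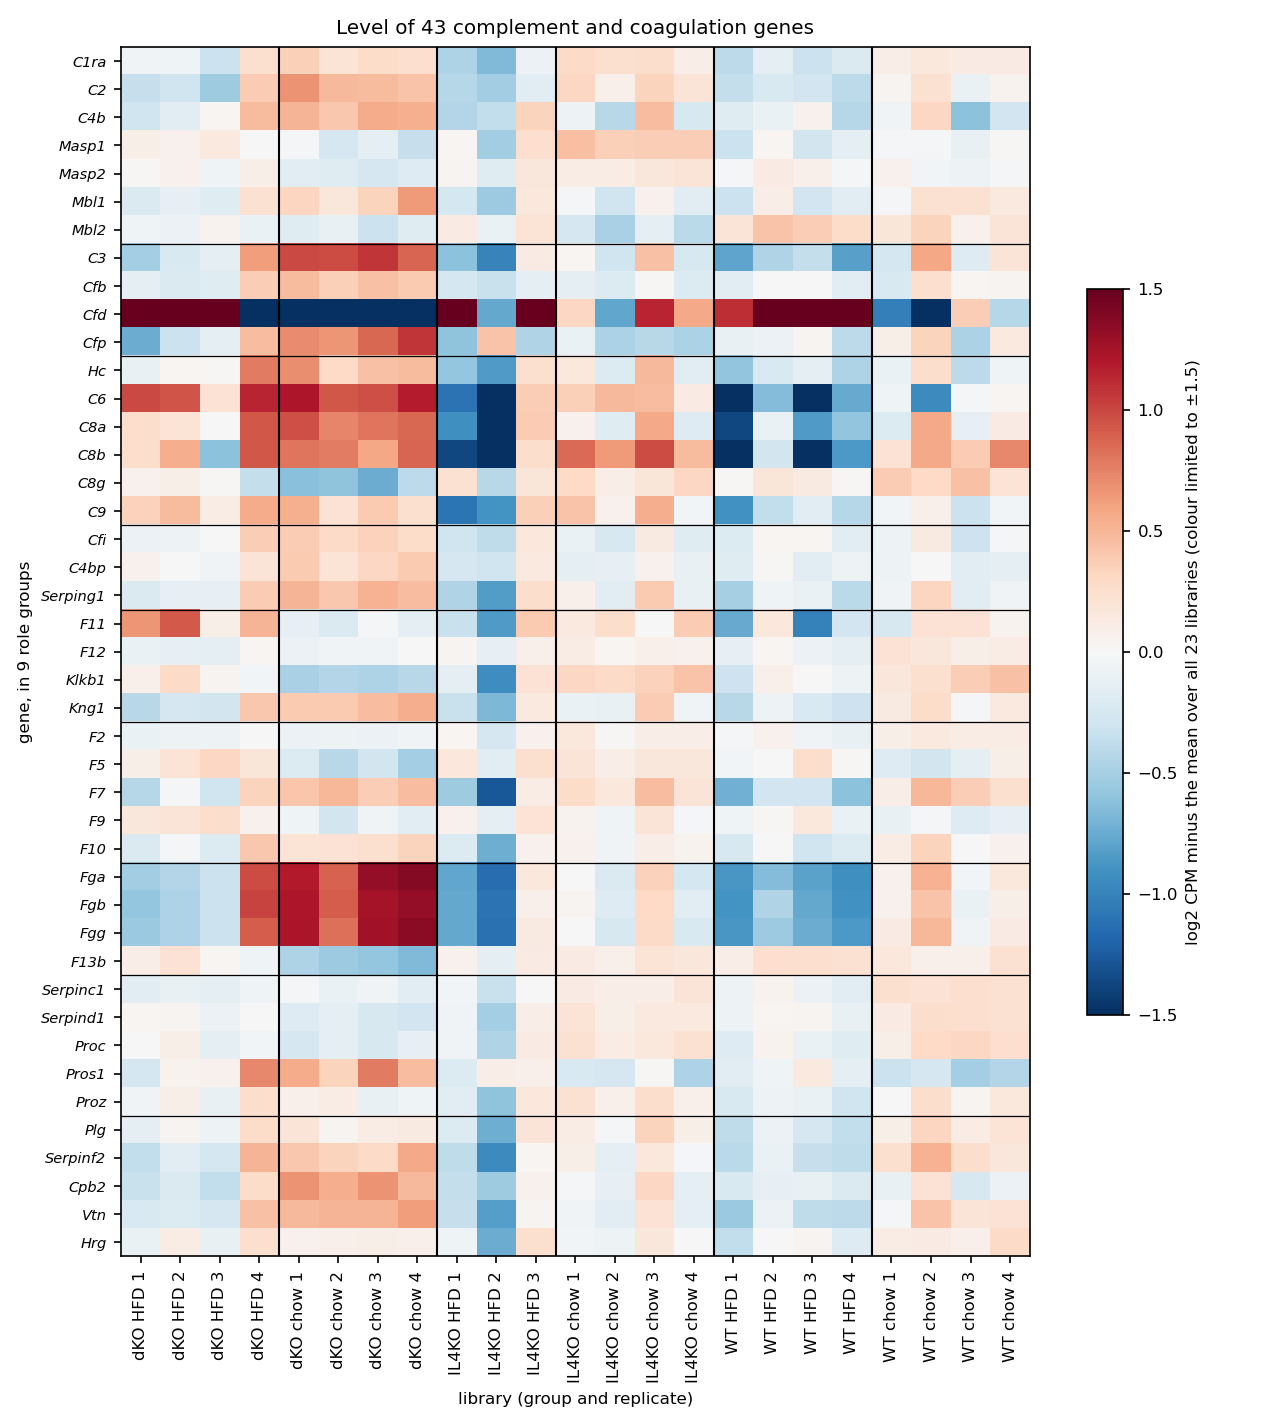
Level of each gene (rows, in 9 role groups) in each of the 23 libraries (columns), as log2 CPM minus the mean of the gene over all libraries, with colours limited to ±1.5. The 4 dKO_chow columns are high for the fibrinogen chains and C3 and low for F13b, Klkb1 and C8g, and the column of dKO_HFD replicate 4 resembles them more than its neighbours do.

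The widest differences were those of mice labelled dKO on chow. Against WT on chow, 22 of the 43 genes were called, 13 higher and 9 lower, against a background of 46.3% of all tested genes (24.4% higher, 21.9% lower). The median log2 fold change of the 43 was 0.141, against 0.0239 for all genes tested. Against IL4KO on chow, 23 were called, 13 higher and 10 lower, with a background of 45.2% (23.0% higher, 22.2% lower); limma on the deposited log2 values gave 17 higher and 8 lower. HFD against chow in dKO called 24, 9 higher and 15 lower, with a background of 40.0% (19.4% higher, 20.5% lower) and a median of -0.257 (all genes -0.0197); limma on the deposited log2 values gave 6 higher and 19 lower. In these 3 comparisons 51.2%, 53.5% and 55.8% of the 43 were called, not far above the background, and all 3 use the dKO_chow libraries. HFD against chow in WT called 14, 1 higher and 13 lower, with a background of 19.5% (9.63% higher, 9.84% lower) and a median of -0.291 (all genes -0.00291). That count was 2 without WT_HFD replicate 4, 4 without WT_chow replicate 2, 7 without WT_HFD replicate 1 or 3, 9 without WT_chow replicate 4, and 23 in a fit of the WT groups alone. HFD against chow in IL4KO called 6, 1 higher and 5 lower, with a background of 9.08% (5.14% higher, 3.94% lower) and a median of -0.294 (all genes -0.000264).

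**Figure D2:**
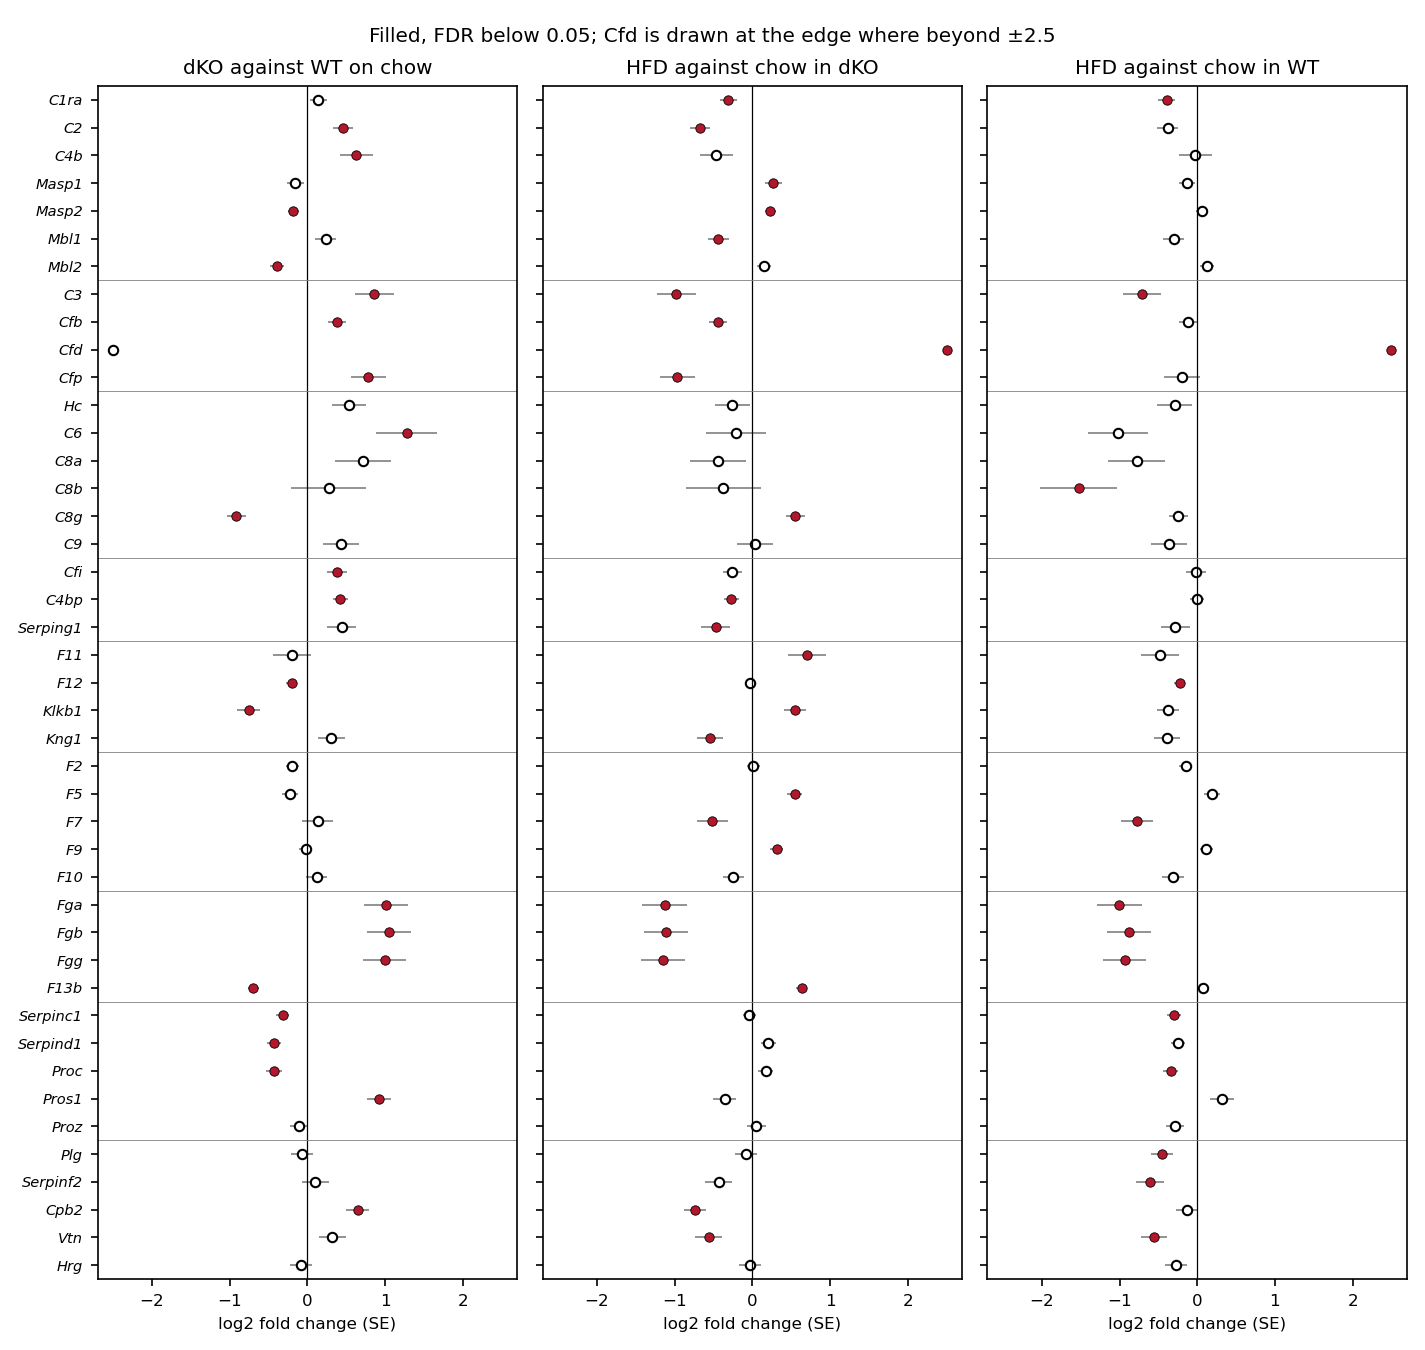
log2 fold change with its standard error (horizontal axis) of each of the 43 genes in dKO against WT on chow, in HFD against chow in dKO and in HFD against chow in WT, with filled points at FDR below 0.05 and grey lines between role groups. In the left panel the 3 fibrinogen chains, C3, C6 and Pros1 lie to the right, and C8g, Klkb1 and F13b lie to the left; the left and middle panels share the dKO_chow libraries, and the left and right panels share the WT_chow libraries.

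The 3 fibrinogen chains were about 2-fold higher in dKO on chow, and lower on HFD than on chow in both dKO and WT. Fga, the alpha chain, stood at 4380, 4655, 5052 and 12426 CPM in dKO_HFD, and at 14333, 11668, 15668 and 16361 CPM in dKO_chow. It stood at 3679, 2853 and 7032 CPM in IL4KO_HFD, and at 6255, 5422, 8011 and 5264 CPM in IL4KO_chow. WT_HFD libraries held 3428, 4005, 3611 and 3328 CPM and WT_chow libraries 6617, 9018, 6106 and 7054 CPM. All dKO_chow libraries were thus above every library of WT and IL4KO, and dKO_HFD replicate 4 was the only dKO_HFD library within the dKO_chow range.

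Fga was higher in dKO than in WT on chow by 1.01 (SE 0.289, FDR 0.0073), Fgb, the beta chain, by 1.05 (SE 0.287, FDR 0.00542), and Fgg, the gamma chain, by 0.99 (SE 0.28, FDR 0.00649). Against IL4KO on chow the differences were 1.22, 1.17 and 1.21, with FDR from 0.00153 to 0.00239. In whole liver, a change in the RNA per cell and a change in the share of cells that make it cannot be told apart. The summed level of the other acute phase genes was also higher in dKO on chow than in the other groups. It was 14348 to 41102 CPM in dKO_HFD, with the highest value in replicate 4, and 49582 to 65162 CPM in dKO_chow, against 14989 to 18666 CPM in WT_HFD and 12100 to 24833 CPM in WT_chow. Between the diets it was lower on HFD in dKO, with a median of 16015 CPM in dKO_HFD and 61906 CPM in dKO_chow, but not in WT, with 17369 CPM in WT_HFD and 13824 CPM in WT_chow. The part of this in the fibrinogen result was not tested.

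On HFD against chow, the chains fell in dKO (Fga -1.13, SE 0.29, FDR 0.00414; Fgb -1.11, FDR 0.00436; Fgg -1.15, FDR 0.00281) and in WT (Fga -1.003, SE 0.289, FDR 0.0191; Fgb -0.88, FDR 0.0357; Fgg -0.93, FDR 0.0232). In IL4KO the same comparison gave -0.46, -0.52 and -0.45, with FDR from 0.31 to 0.371. These values include IL4KO_HFD replicate 3, which lay within the IL4KO_chow range for all 3 chains. Its Fga stood at 7032 CPM, against 3679 and 2853 CPM in the other IL4KO_HFD libraries, which lay below that range. The IL4KO values for the chains are not given without that library, so a weaker fall in IL4KO is not shown. The WT calls rested on single libraries: without WT_chow replicate 2 the 3 chains had FDR of 0.0597, 0.0989 and 0.0697, and without WT_HFD replicate 4 they had 0.053, 0.0904 and 0.0609. On HFD the chains were higher in dKO than in WT by 0.88 (FDR 0.0303), 0.81 (FDR 0.0425) and 0.78 (FDR 0.0468). That difference was smaller without dKO_HFD replicate 4, at 0.38 (FDR 0.21), 0.29 (FDR 0.322) and 0.30 (FDR 0.319), and its calls were also lost without WT_HFD replicate 1, 3 or 4 (FDR 0.0583 to 0.102) and with limma on the deposited log2 values (FDR 0.0593 to 0.09).

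The chains kept nearly the same ratio while their level changed. Fga over Fgb ran from 1.03 to 1.26 across all 23 libraries and Fgg over Fgb from 0.715 to 0.801. The 3 genes are neighbours on chromosome 3, with 11 kb between Fgg and Fga and 6.51 kb between Fga and Fgb. Per kb of exon, Fga (4820 CPM per kb) and Fgg (4424) ranked first and second among the 43 genes in dKO_chow, and the same ranks held in WT_chow with 2392 and 2221.

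F13b encodes the carrier subunit of factor XIII, the enzyme that cross-links fibrin. It stood at 146.6, 138.8, 136.1 and 127.7 CPM in dKO_chow, against 225.7, 213, 213.6 and 238 CPM in WT_chow and 220.1, 214.7, 234.7 and 228 CPM in IL4KO_chow. The ranges did not overlap, and F13b was lower in dKO against WT (log2 fold change -0.70, SE 0.0742, FDR 6.1e-07) and against IL4KO (-0.71, FDR 5.52e-07). In dKO_HFD it stood at 217.7, 234.8, 207.3 and 193.2 CPM, higher than in dKO_chow by 0.64 (SE 0.0741, FDR 3.18e-06), while HFD against chow gave 0.08 in WT (FDR 0.518) and -0.13 in IL4KO (FDR 0.336). F13b lies 8.48 Mb from Il10 on chromosome 1.

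**Figure D3:**
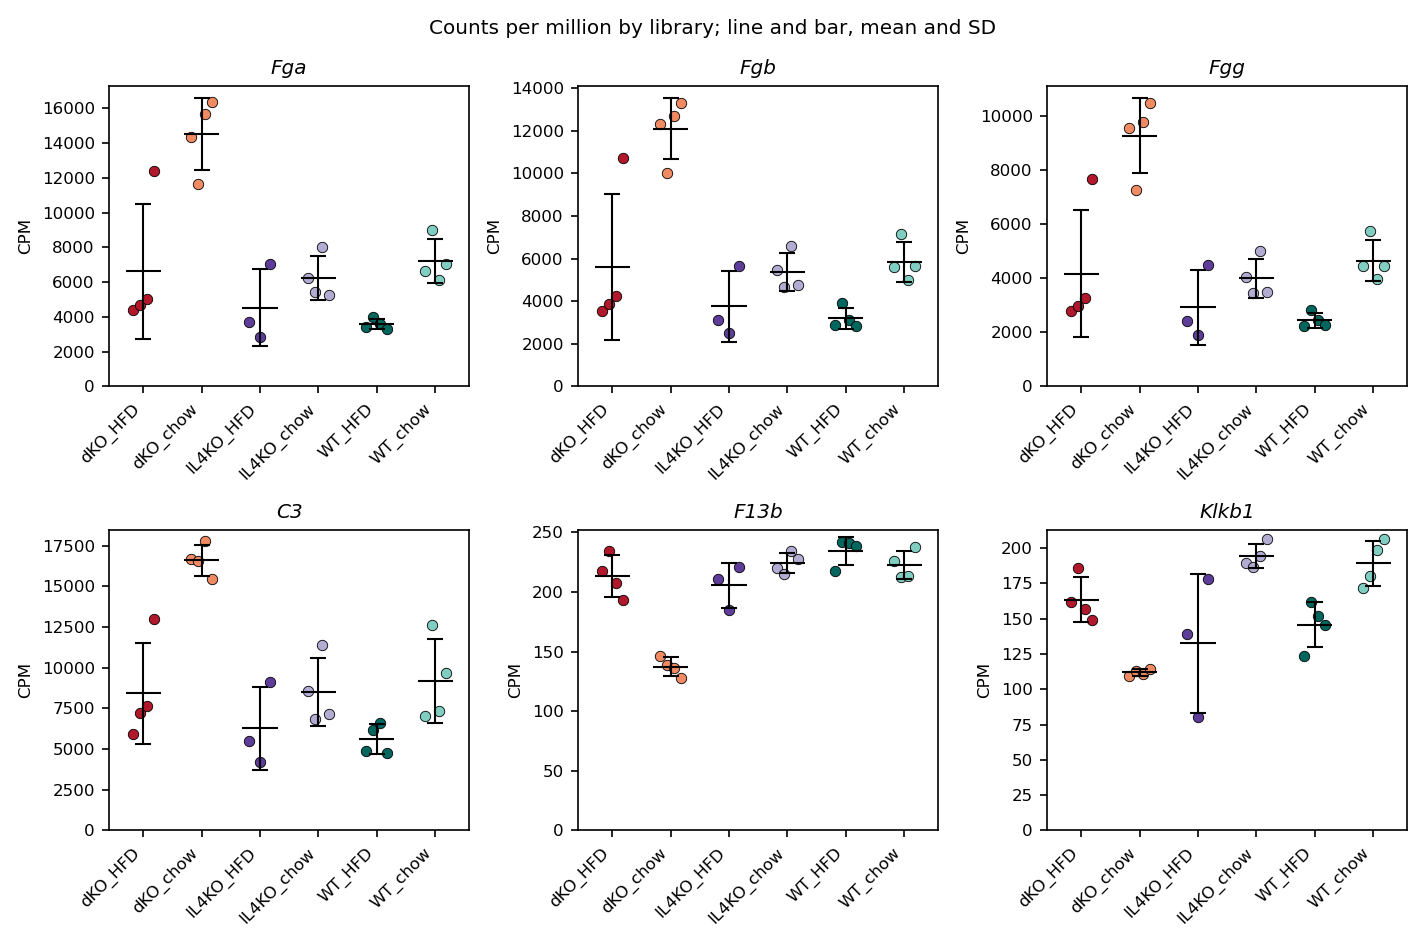
CPM of Fga, Fgb, Fgg, C3, F13b and Klkb1 in each library (points) of the 6 groups, with the group mean (line) and SD (bar). The dKO_chow means are the highest for the fibrinogen chains and C3 and the lowest for F13b and Klkb1, and 1 dKO_HFD point (replicate 4) sits above the other 3 for the fibrinogen chains and C3, within the dKO_chow range for Fga.

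C3, the central protein of all complement pathways, was also higher in dKO on chow. It averaged 16624 ± 955 CPM in dKO_chow (SD, n = 4), with 15437 to 17770 CPM per library, against 9164 ± 2588 CPM in WT_chow, with 7021 to 12623 CPM, and the ranges did not overlap. The difference was 0.86 (SE 0.249, FDR 0.00764) against WT and 0.97 (FDR 0.00329) against IL4KO. C3 was lower on HFD than on chow in dKO (log2 fold change -0.98, FDR 0.00371) and in WT (-0.71, FDR 0.0482). The WT call was lost without WT_chow replicate 2 (FDR 0.175) or replicate 4 (FDR 0.091), and without any 1 of the WT_HFD libraries (FDR 0.0549 to 0.125). Cfb, factor B of the alternative pathway convertase, was higher in dKO against WT on chow by 0.38 (FDR 0.0117), and lower on HFD than on chow in dKO (-0.44, FDR 0.00556). Without WT_chow replicate 1 the first of these had an FDR of 0.0645.

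Cfp encodes properdin, which stabilises the alternative convertase and is made mostly by leukocytes rather than hepatocytes. It stood at 39.12, 37.85, 43.24 and 50.23 CPM in dKO_chow, against 25.34, 30.17, 17.12 and 26.31 CPM in WT_chow, higher by 0.78 (SE 0.225, FDR 0.00806) with no overlap. In dKO, HFD libraries held 14.15 to 32.96 CPM, lower than on chow (-0.96, FDR 0.00211). Leukocyte markers moved with Cfp. In dKO against WT on chow, 12 of 12 tested neutrophil markers and 9 of 10 Kupffer cell markers were called higher. These marker lists were chosen with earlier results of these data known. The summed neutrophil level was 3.613 to 103 CPM in dKO_HFD and 198.2 to 538.5 CPM in dKO_chow, against 2.898 to 31.54 CPM in WT_chow, and the summed Kupffer level was 255.3 to 589.4 CPM in dKO_HFD and 677.3 to 902 CPM in dKO_chow, against 257.9 to 478.5 CPM in WT_chow. Ly6g, a defining neutrophil marker, had 73 counts over all 23 libraries and was not tested. The part of these cells in the Cfp result was not tested.

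Cfd encodes factor D (adipsin), the protease that cuts factor B and is known chiefly from adipocytes. Its counts were 758, 545, 506 and 0 in dKO_HFD and 1, 4, 1 and 0 in dKO_chow, against 122, 17 and 309 in IL4KO_HFD, 21 to 53 in IL4KO_chow, 106 to 470 in WT_HFD and 7 to 48 in WT_chow. dKO_HFD replicate 4 was thus at 0 like 1 of the dKO_chow libraries, while the other 3 dKO_HFD libraries held 22.46 to 57.06 CPM. Pooled over 4 libraries, the dKO_chow level was 0.0645 CPM (exact Poisson 95% interval 0.0237 to 0.14, counting error only), and that of WT_chow was 2.19 CPM (1.78 to 2.67).

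Cfd was called higher on HFD in dKO (FDR 0.000392) and in WT (log2 fold change 3.16, SE 1.04, FDR 0.0402), and in IL4KO the fold change was 2.08 (FDR 0.225). The fitted fold change in dKO, 8.46, depends on the prior count because dKO_chow was close to 0, and it is no bound. The WT call was lost with limma on the deposited log2 values (2.49, FDR 0.0886), without a filter (FDR 0.0573) and in 7 of the 8 fits that left out a library. Against IL4KO on chow Cfd was called lower in dKO (FDR 0.0159), and against WT on chow it was not called (FDR 0.0609). The adipocyte markers divided. Adipoq, Lep, Plin1 and Retn, which define adipocytes, had 7, 9, 0 and 7 counts over all 23 libraries. Fabp4, Cidea, Cidec and Lipe, which fatty hepatocytes can also express, were tested, and their summed level was 65.38 to 231.5 CPM in dKO_HFD against 34.18 to 46.54 CPM in dKO_chow, and 187.4 to 256.2 CPM in WT_HFD against 27.16 to 49.73 CPM in WT_chow. On HFD against chow 3 of these 4 were called higher in dKO and 4 of 4 in WT, and dKO_HFD replicate 4 had the lowest sum of its group. Their part in the Cfd result was not tested.

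**Figure D4:**
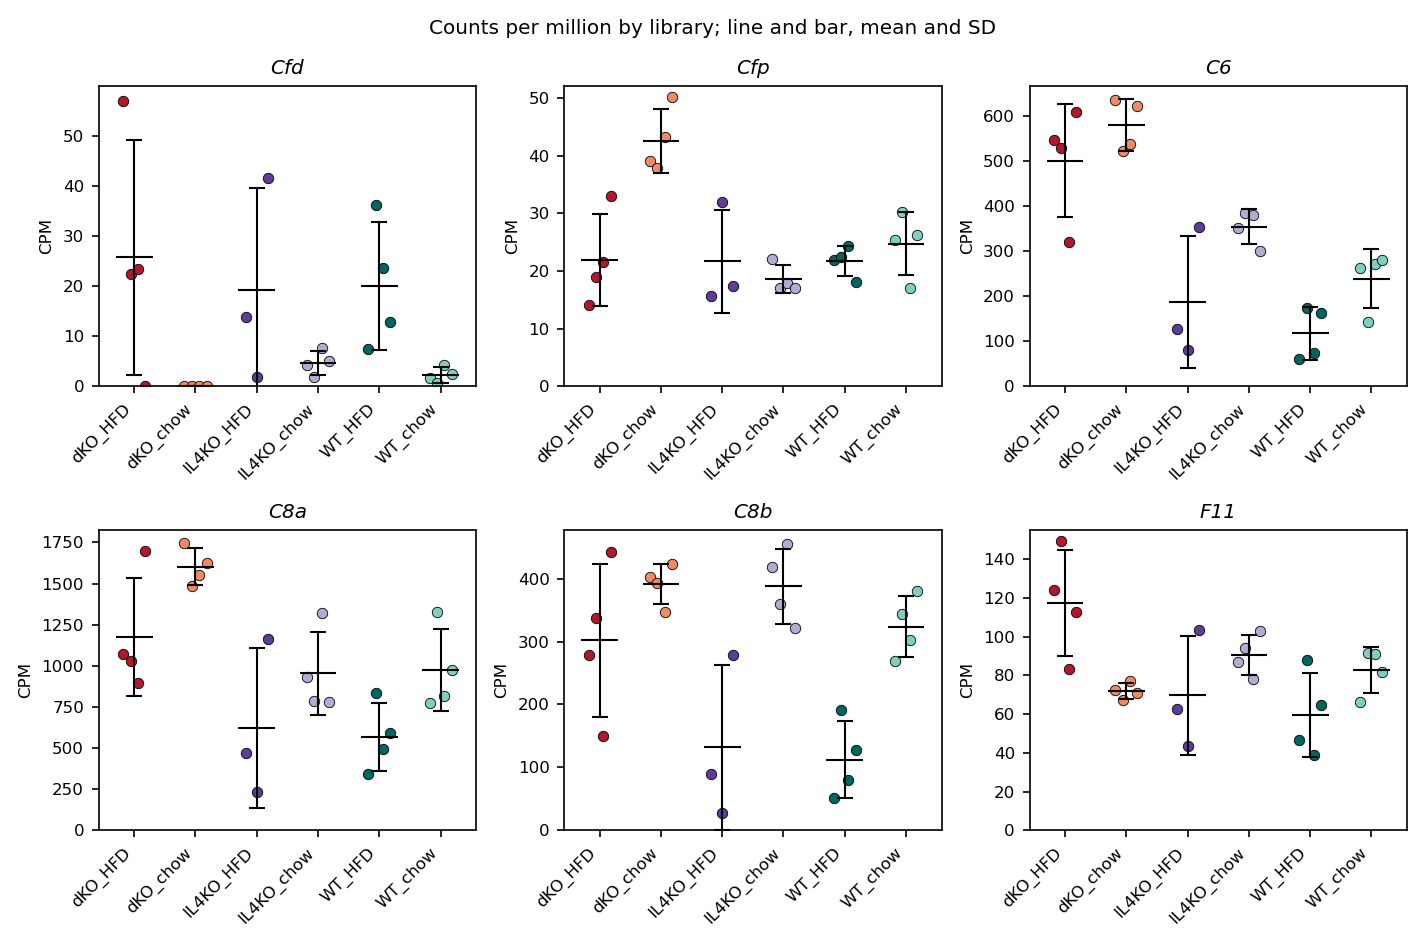
CPM of Cfd, Cfp, C6, C8a, C8b and F11 in each library (points) of the 6 groups, with the group mean (line) and SD (bar, cut off at 0 where it runs below). Cfd is near 0 in all dKO_chow libraries and in 1 dKO_HFD library, and the WT_HFD points are low for C6, C8a and C8b, as are 2 of the 3 IL4KO_HFD points for C8b.

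Among the activating proteins of the classical and lectin pathways, changes were small and of both signs. C2, the protease of the classical convertase, was higher in dKO against WT on chow by 0.46 (FDR 0.00818), and C4b, the gene of complement C4, by 0.63 (SE 0.213, FDR 0.0198). C4b reads are uncertain, since C4a is a near-identical copy; C4a itself averaged 46.11 CPM in dKO_chow and 38.48 CPM in WT_chow. Without WT_chow replicate 3 or replicate 4 the C4b call was lost (FDR 0.087 and 0.0613). C2 was lower on HFD than on chow, at -0.67 in dKO (FDR 0.00053) and -0.60 in IL4KO (FDR 0.015). C1ra, a protease of the C1 complex with a near copy in C1rb, was lower on HFD in dKO (-0.31, FDR 0.0296), IL4KO (-0.61, FDR 0.00369) and WT (-0.39, FDR 0.0159). The C1ra call in dKO was lost without a filter (FDR 0.057) and in 6 of the 8 fits without a dKO library (FDR 0.0508 to 0.135).

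The mannose-binding lectins, which recognise sugars on microbes, did not move together. Mbl2 stood at 300, 314.2, 272.2 and 300.5 CPM in dKO_chow and 285.6, 242.6, 308.2 and 257.3 CPM in IL4KO_chow, against 386.9, 426.8, 354.3 and 390.1 CPM in WT_chow, and neither knockout overlapped WT. It was lower, at -0.39 in dKO (SE 0.0888, FDR 0.00114) and at -0.51 in IL4KO (SE 0.0891, FDR 0.000738), 2 comparisons that share the WT_chow libraries. On HFD Mbl2 was lower in dKO against WT (-0.37, FDR 0.00486), and in IL4KO against WT it gave -0.24 (FDR 0.203). Mbl1 was higher in dKO against IL4KO on chow by 0.48 (FDR 0.00675), and against WT it gave 0.23 (FDR 0.166). Masp1, a protease bound to these lectins, was higher in IL4KO than in WT on chow by 0.42 (FDR 0.0158) and lower in dKO than in IL4KO (-0.58, FDR 0.000192). The difference of IL4KO from WT had an FDR of 0.0506 without WT_chow replicate 3 and of 0.0504 without IL4KO_chow replicate 1. Masp2, the protease that cuts C4 and C2, was lower in dKO against WT on chow (-0.18, FDR 0.0417), a call lost with limma on the deposited log2 values (FDR 0.186).

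The terminal components separated by gene. C6 averaged 578.7 ± 57.2 CPM in dKO_chow and 238.9 ± 65.0 CPM in WT_chow (SD, n = 4 each), and 500.2 ± 125 CPM in dKO_HFD and 117.6 ± 58.9 CPM in WT_HFD. Per library, dKO_HFD held 545.3, 527.6, 319.6 and 608.4 CPM, against 59.79, 174.1, 74.41 and 162.2 CPM in WT_HFD, with no overlap on either diet. C6 was higher in dKO against WT by 1.28 on chow (SE 0.391, FDR 0.0125) and by 2.09 on HFD (SE 0.401, FDR 0.00133). In dKO against IL4KO it was not called, at 0.71 on chow (FDR 0.144) and 1.42 on HFD (FDR 0.0869). IL4KO averaged 353.6 CPM on chow and 186.9 CPM on HFD, and C6 was not called in IL4KO against WT either (FDR 0.394 and 0.473). Of the genes called between dKO and WT on HFD, which were 9 of 43 (8 higher and 1 lower, against a background of 24.5%, with 12.9% higher and 11.6% lower), C6 had the largest fold change, and it was 1.98 (FDR 0.00436) without dKO_HFD replicate 4. The count of 9 was 4 without that library and without WT_HFD replicate 1, 3 or 4.

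C8a and C8b, the alpha and beta chains of C8, lie 11.1 kb apart on chromosome 4. In dKO against WT on HFD, C8a was higher by 1.05 (SE 0.363, FDR 0.041) and C8b by 1.42 (SE 0.493, FDR 0.0433), and C9, which forms the pore, by 0.83 (SE 0.233, FDR 0.0139). None of these genes was called in dKO against IL4KO on HFD. That comparison gave 0.92 for C8a (FDR 0.21), 1.20 for C8b (FDR 0.232) and 0.78 for C9 (FDR 0.103). C8b stood at 278.1, 336.8, 150.4 and 441.7 CPM in dKO_HFD, against 52.15, 190.5, 80.6 and 127 CPM in WT_HFD, so that 1 dKO library lay within the WT range. Without dKO_HFD replicate 4 the C8a difference was 0.82 (FDR 0.133) and that of C8b 1.18 (FDR 0.114), and leaving out WT_HFD replicate 1, 3 or 4 also ended both calls (FDR 0.0743 to 0.116). C8b averaged 112.6 CPM in WT_HFD and 324 CPM in WT_chow (log2 fold change -1.52, SE 0.495, FDR 0.038), a call lost in 6 of the 8 fits without a WT library (FDR 0.0607 to 0.101). In IL4KO the diet difference of C8b was -1.56 (FDR 0.0828), with 89.49, 27.72 and 278.5 CPM in IL4KO_HFD. The C8a to C8b ratio ran from 2.19 to 8.4 across the 23 libraries.

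C8g encodes the gamma chain of C8, which belongs to another protein family than the alpha and beta chains. It stood at 176.5, 178.7, 162.5 and 207.4 CPM in dKO_chow, against 353.1, 334.6, 368.1 and 313.3 CPM in WT_chow, lower (log2 fold change -0.92, SE 0.12, FDR 5.46e-06) with no overlap. It was higher on HFD than on chow in dKO by 0.55 (FDR 0.000972). Hc, the gene of C5, gave 0.54 in dKO against WT on chow (FDR 0.0537).

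The complement regulators were higher in dKO against WT on chow for Cfi, which cuts C3b and C4b (0.38, FDR 0.0166), and for C4bp, its cofactor (0.42, SE 0.0959, FDR 0.00116). Serping1, the C1 inhibitor, gave 0.44 (FDR 0.0545). The Cfi call was lost without WT_chow replicate 3 (FDR 0.0802). C4bp held 768.5 to 877.6 CPM in dKO_chow and 593.2 to 667.1 CPM in WT_chow. It lies 0.358 Mb from Il10 on chromosome 1, so that an effect of the targeted gene and one of its chromosomal neighbourhood cannot be told apart. On HFD the C4bp difference was 0.15 (FDR 0.249).

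Klkb1 and F11 encode prekallikrein and factor XI, related proteases of the contact system, and lie 4.66 kb apart on chromosome 8. Klkb1 stood at 109.3, 113, 111.1 and 114.3 CPM in dKO_chow, against 171.7, 180, 198.4 and 206.6 CPM in WT_chow and 189.7, 186.9, 194.8 and 206.6 CPM in IL4KO_chow. It was lower in dKO against WT (log2 fold change -0.76, SE 0.146, FDR 0.000289) and against IL4KO (-0.80, FDR 0.000174). On HFD against chow Klkb1 was higher in dKO (0.55, FDR 0.00504) and lower in IL4KO (-0.55, FDR 0.0319), the second with -0.29 (FDR 0.218) without IL4KO_HFD replicate 2. F11 gave -0.20 in dKO against WT on chow (FDR 0.521). On HFD F11 was higher in dKO than in WT by 0.98 (SE 0.243, FDR 0.00708), with 124.3, 149.5, 83.31 and 112.5 CPM in dKO_HFD against 46.44, 87.76, 38.9 and 64.5 CPM in WT_HFD, where the ranges just overlapped.

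F12, the factor XII gene that starts the contact pathway, was lower, at -0.20 in dKO against WT on chow (FDR 0.0241) and at -0.22 on HFD against chow in WT (FDR 0.0287). The first call was lost with limma on the deposited log2 values (FDR 0.128), and the second without WT_HFD replicate 4 (FDR 0.083). Kng1, the kininogen from which bradykinin is released, was lower on HFD than on chow in dKO (-0.54, FDR 0.0139), and its reads are uncertain because Kng2 is a near copy.

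None of the 5 genes for prothrombin, factor V and factors VII, IX and X was called between dKO and WT on either diet with edgeR, and 2 on chow and 0 on HFD had an unadjusted p below 0.05. F7, the gene of the protease that starts clotting with tissue factor, was lower on HFD than on chow in all 3 genotypes. It stood at 60.89, 80.65, 66.6 and 104.1 CPM in dKO_HFD against 106.4 to 116.4 CPM in dKO_chow (-0.52, FDR 0.0471), at 56.58, 33.87 and 89.2 CPM in IL4KO_HFD against 91.93 to 113.7 CPM in IL4KO_chow (-0.74, FDR 0.0454), and at 49.92 to 67.4 CPM in WT_HFD against 87.87 to 115.9 CPM in WT_chow (-0.77, SE 0.204, FDR 0.0118). The ranges did not overlap in any genotype. The dKO call was lost in 7 of the 8 fits without a dKO library (FDR 0.0685 to 0.139), and the IL4KO call in 6 of the 7 without an IL4KO library, with -0.44 (FDR 0.273) without IL4KO_HFD replicate 2. F5, the gene of the prothrombinase cofactor, and F9, that of the factor lacking in haemophilia B, were higher on HFD than on chow in dKO by 0.54 (SE 0.101, FDR 0.000269) and 0.31 (FDR 0.00528). F2, prothrombin, gave 0.01 (FDR 0.908) in dKO, -0.14 (FDR 0.327) in IL4KO and -0.15 (FDR 0.223) in WT on HFD against chow. F10, the factor X gene, gave -0.24 in dKO (FDR 0.171), -0.30 in IL4KO (FDR 0.225) and -0.31 in WT (FDR 0.121).

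Of the 5 anticoagulants, 3 were lower and 1 higher in dKO against WT on chow. The log2 fold changes were -0.32 for Serpinc1, antithrombin (FDR 0.00431), -0.43 for Serpind1, heparin cofactor II (SE 0.0952, FDR 0.000965), and -0.43 for Proc, protein C (SE 0.0979, FDR 0.00117). Pros1 encodes protein S, a cofactor of protein C. It stood at 135.4, 115.4, 157.9 and 126.3 CPM in dKO_chow, against 73.62, 77.31, 64.58 and 67.84 CPM in WT_chow, higher by 0.92 (SE 0.153, FDR 8.21e-05) with no overlap. Protein C and its cofactor thus moved in opposite directions. Proz, protein Z, gave -0.11 (FDR 0.462). On HFD against WT, edgeR called 0 of the 5, and 0 had an unadjusted p below 0.05.

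Of the 5 genes of fibrinolysis and plasma adhesion, Cpb2 was the member called in dKO against WT on chow. Cpb2 encodes the carboxypeptidase that protects fibrin from plasmin, and it stood at 621.9, 569.5, 620.2 and 546.8 CPM in dKO_chow, against 359.6, 453.2, 329.2 and 366.5 CPM in WT_chow (0.64, SE 0.142, FDR 0.000936, no overlap). On HFD against chow it was lower in dKO (-0.74, FDR 0.000382). Vtn, the adhesion protein vitronectin, was lower on HFD than on chow, at -0.56 both in dKO (FDR 0.0111) and in WT (FDR 0.0236). Plg (plasminogen) and Serpinf2 (the plasmin inhibitor) were lower on HFD than on chow in WT, at -0.45 (FDR 0.031) and -0.61 (FDR 0.019). In WT the Plg, Serpinf2 and Vtn calls were lost without WT_chow replicate 2 (FDR 0.0828, 0.0617 and 0.0748) and without WT_HFD replicate 4 (FDR 0.0847, 0.0534 and 0.0596). Hrg, the histidine-rich glycoprotein, was not called in any of the comparisons, nor were F2, F10 and Proz.

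Few of the 43 genes were called between IL4KO and WT, and few of all tested genes were. On chow 2 of the 43 were called against WT (Masp1 higher, Mbl2 lower, against a background of 9.61%, with 5.93% higher and 3.68% lower). On HFD edgeR called 0, with a background of 3.02% (1.73% higher, 1.29% lower), and 2 (Mbl2 and F13b) had an unadjusted p below 0.05; DESeq2 and limma also called 0. In dKO against IL4KO on HFD edgeR again called 0 (background 2.51%, with 0.946% higher and 1.56% lower), 7 had an unadjusted p below 0.05, DESeq2 called 2 and limma 1. That count was 13 without IL4KO_HFD replicate 3 and 1 without dKO_HFD replicate 3. HFD against chow in IL4KO depended on the same libraries, with 19 genes called without IL4KO_HFD replicate 3, 2 without replicate 2 and 3 without replicate 1 or without IL4KO_chow replicate 1, against 6 with all libraries.

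The effect of diet differed between genotypes for some of these genes. Diet effect in dKO minus diet effect in WT called 8 of the 43, 6 higher and 2 lower, with a background of 25.2% (12.6% in each direction). The share called was thus below that of all tested genes. F13b (0.56, SE 0.105, FDR 0.00178), C8g (0.80, FDR 0.00333), Klkb1 (0.92, FDR 0.00452), Proc (0.51, FDR 0.0119), F11 (1.18, SE 0.342, FDR 0.0194) and Serpind1 (0.45, FDR 0.0197) had a more positive diet effect in dKO. Pros1 (-0.67, FDR 0.0283) and Cpb2 (-0.61, FDR 0.0305) had a more negative one. For Klkb1 the diet effects were 0.55 in dKO and -0.38 in WT, and for F11 0.71 and -0.47. The fibrinogen chains fell in both genotypes, and the difference between their diet effects was -0.13 to -0.24 with FDR from 0.7 to 0.844. This difference includes dKO_HFD replicate 4, whose Fga stood at 12426 CPM, with a group median of 4853 CPM. The difference for the chains is not given without that library. The count of called genes was 15 without dKO_HFD replicate 4. The Pros1 and Cpb2 calls were lost in 7 and 8 of the 16 fits without a dKO or WT library, and the other 6 genes were called in all of them.

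**Figure D5:**
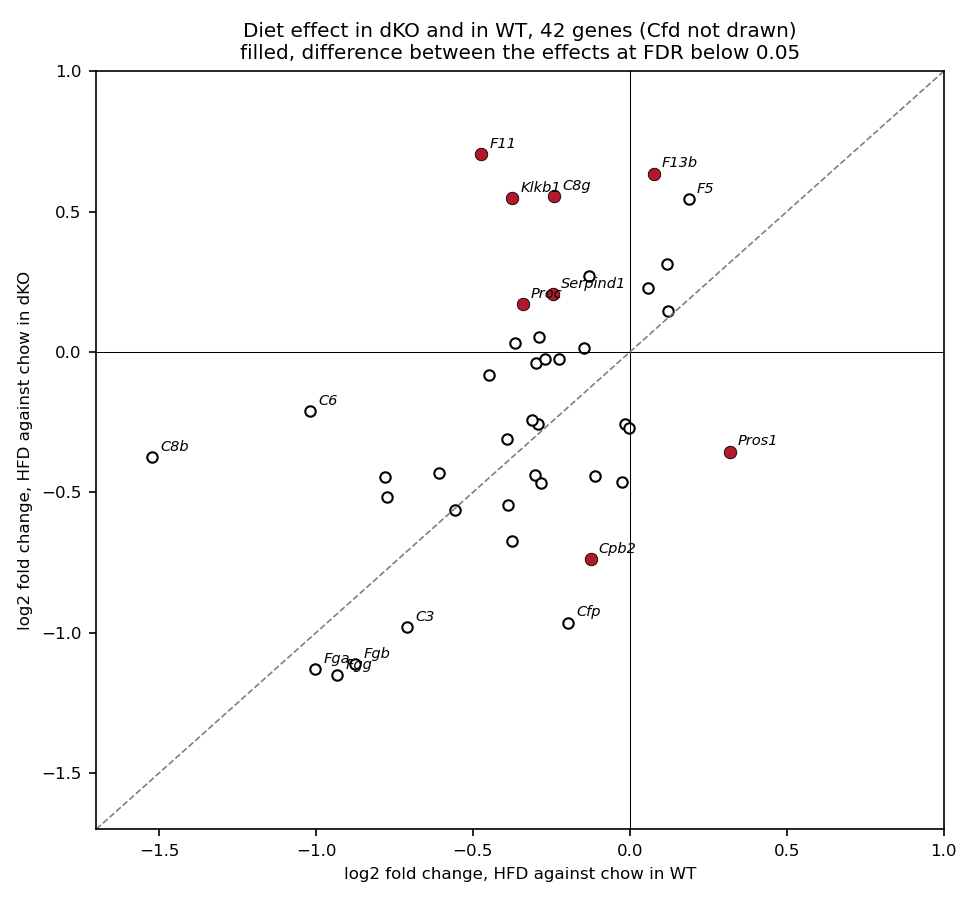
log2 fold change of HFD against chow in dKO (vertical axis) and in WT (horizontal axis) for 42 of the genes, with the line of equal effects dashed and filled points where the difference between the effects was called. With all libraries used, Fga, Fgb, Fgg and C3 lie near the line at the lower left, and F11, Klkb1, C8g, F13b, Proc and Serpind1 lie above it.

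Diet effect in dKO minus diet effect in IL4KO called 11, 10 higher and 1 lower, with a background of 24.4% (12.7% higher, 11.7% lower). The share called in either direction was thus near that of all tested genes. The called genes were led by F13b (0.76, SE 0.109, FDR 0.000521), Klkb1 (1.10, FDR 0.00204), Masp1 (0.70, FDR 0.0044), C8g (0.75, FDR 0.00498), F5 (0.61, FDR 0.00611) and Serpind1 (0.49, FDR 0.016), and Cfp was the lower one (-1.19, FDR 0.018). This comparison shares the dKO libraries with the one before. The Cfp call was lost without IL4KO_HFD replicate 2 (-0.78, FDR 0.132), and the count was 5 without that library and 18 without IL4KO_HFD replicate 3 or dKO_HFD replicate 4. Diet effect in IL4KO minus diet effect in WT called 0 with edgeR (background 0.0465%, with 0.0155% higher and 0.0310% lower), 1 gene had an unadjusted p below 0.05, and DESeq2 and limma called 0.

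Other genes of these pathways that are receptors, regulators or made by leukocytes were counted beside the 43. Their lists were chosen with earlier results of these data known, so the counts only describe them. The backgrounds are those given above, 46.3% of all tested genes for dKO against WT on chow, 24.5% on HFD, and 40.0% for HFD against chow in dKO. Of 29 tested complement genes, 16 were higher and 5 lower in dKO against WT on chow (median 0.659), and 3 higher and 14 lower on HFD against chow in dKO. Itgam, a chain of complement receptor 3 on myeloid cells, was higher by 3.59 (FDR 1.21e-05), and C5ar1, the C5a receptor, by 2.11 (FDR 1.62e-05). Of 23 tested coagulation genes, 9 were higher and 5 lower in dKO against WT on chow (median 0.31), and 2 higher and 5 lower on HFD against chow in dKO. Serpina10, the protein Z-dependent inhibitor, was higher by 1.32 (FDR 0.000453) and F13a1, the catalytic subunit of factor XIII, by 4.60 (FDR 0.000104). F13a1 averaged 3.491 CPM in dKO_chow and 0.1333 CPM in WT_chow, so that its fitted fold change rests on few counts. The A and B subunits of factor XIII thus moved in opposite directions, and F13a1 is known from macrophages and platelets while F13b is made by hepatocytes.

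Regulators of hepatocyte transcription were listed with the receptor genes Il6ra, Il6st and Il1r1 and with Socs3. Of these 18 genes, 5 were higher and 3 lower in dKO against WT on chow, a share near the background of 46.3%. Il6st, the signalling subunit of the interleukin-6 receptor, was higher by 0.45 (FDR 0.000438), and Ppara, the fatty acid sensor, was lower (log2 fold change -0.69, FDR 0.00134). In dKO against WT on HFD, 11 of 18 were higher and 0 lower, with Il6st, Il1r1 and Socs3 among the 11. No count without dKO_HFD replicate 4 is given for this list. The lists in this paragraph were also chosen with earlier results of these data known, so their counts are no independent test against the background. Of the 17 other acute phase genes, 15 were higher and 0 lower in dKO against WT on chow, with Cp, ceruloplasmin, at 1.19 (FDR 1.38e-06) and Hp, haptoglobin, at 1.83 (FDR 3.02e-05), and 13 of 17 were lower on HFD against chow in dKO. Of 16 hepatocyte markers, 1 was higher and 11 lower in dKO against WT on chow. Their summed level was 146274 to 155865 CPM in dKO_HFD and 103009 to 114865 CPM in dKO_chow, against 139206 to 142995 CPM in WT_chow. It was 112696 to 141687 CPM in IL4KO_chow and 109097 to 152776 CPM in IL4KO_HFD, and the lowest library of each lay within the dKO_chow range. All 9 tested cholangiocyte markers were higher in dKO against WT on chow, with sums of 469.4 to 848.4 CPM in dKO_chow against 45.74 to 53.37 CPM in WT_chow. Of 10 endothelial markers, 1 was higher and 3 lower, near that background. The part of these cell types in the results for the 43 genes was not tested.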

How the data were processed

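Liver RNA of 23 mice was sequenced, per the labels, from stranded mRNA libraries. The submitters' processing notes name bcl2fastq 2.16, TopHat2 2.0.8, Partek without a version, and mm10. Annotation, counting and strand settings were not given in the sources used here. Estimated counts by gene symbol were deposited (90.62% to 95.86% of values in a library lie within 0.001 of a whole number), and so were log2 expression values for 14078 genes. How the authors normalised these log2 values was likewise not given.

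The counts were rounded, filtered by group and scaled by trimmed mean of M values. Of 24440 genes, 6462 were 0 in every library, and 12891 were tested. edgeR 4.0.16 in R 4.3.3 fitted the 6 group means of all 23 libraries (robust quasi-likelihood, 17 residual degrees of freedom, biological coefficient of variation 0.156). The 9 pairs and 3 interactions had two-sided tests at a Benjamini-Hochberg FDR of 0.05 across the tested genes. The SE is the absolute log2 fold change divided by the square root of F. Replicates are separate mice per the series' design, and were numbered in accession order. Depth was 7114454 to 30205070 counts per library. The fit was tested on simulated data.

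The members and lists were chosen with earlier results of these data known. All 43 genes may be named. Those given in full were, per comparison and role group, the called genes with the largest fold change (up to 2 a direction), up to 6 a direction by FDR for interactions, and up to 4 called genes of each other list. Values of other members complete a role group. Alternatives were RLE scaling, no filter, DESeq2 1.42.0, the compared groups alone, limma 3.58.1 on the deposited log2 values, and leaving out each library in turn. Positions are from GENCODE on mm10, and promoters from RefSeq.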

Additional observations from a re-analysis of the deposited data

Results flagged for a closer look

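Some values lay far from the other libraries of their group, as judged by the gap to the nearest library over the range of the group (Dixon's test). Of 215 groups of 4 libraries, 14 held such a value, and chance gives about 1 in 20. Of the 14, 8 came from dKO_HFD replicate 4: Cfb at 1701 CPM, Hc at 1851, Serping1 at 1355, Kng1 at 3214, Fga at 12426, Fgb at 10714, Fgg at 7658 and Vtn at 3262 CPM, each above the other 3 libraries. The rest were Cfp at 22.17 CPM in IL4KO_chow replicate 1, C4bp at 699.4 and Kng1 at 3157 CPM in IL4KO_chow replicate 3, Vtn at 3715 CPM in dKO_chow replicate 4, C6 at 142 CPM in WT_chow replicate 2 and F13b at 217.3 CPM in WT_HFD replicate 1, the last 2 below their groups.

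The effect of diet differed between genotypes, by the interaction term at FDR below 0.05, for 8 genes in dKO minus WT and 11 in dKO minus IL4KO. The backgrounds were 25.2% and 24.4% of all tested genes, so the first share was below its background and the second near it. Of the 8 in dKO minus WT, Proc, Serpind1 and Pros1 were not called for HFD against chow in dKO itself (FDR 0.169, 0.0884 and 0.0661). In dKO minus WT the log2 differences were 0.56 for F13b, 0.80 for C8g, 0.92 for Klkb1, 0.51 for Proc, 1.18 for F11, 0.45 for Serpind1, -0.67 for Pros1 and -0.61 for Cpb2. In dKO minus IL4KO the 6 higher ones with the lowest FDR, of 10, and the 1 lower one were 0.76 for F13b, 1.10 for Klkb1, 0.70 for Masp1, 0.75 for C8g, 0.61 for F5, 0.49 for Serpind1 and -1.19 for Cfp.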

How the results depend on the processing

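Of 119 called gene and comparison pairs, 71 were called under every setting run and 0 reversed. Counts moved by over 1.5 times in HFD against chow in IL4KO (6 genes; DESeq2 10, compared groups only 2) and in WT (14; no filter 9, compared groups only 23), in dKO against WT on HFD (9; no filter 5, compared groups only 5), in dKO against IL4KO on HFD (0; DESeq2 2, limma 1), and in diet effect in dKO minus diet effect in WT (8; DESeq2 13). Leaving out each library in turn gave 17 to 29 genes for HFD against chow in dKO, 2 to 19 in IL4KO and 2 to 14 in WT (2 without WT_HFD replicate 4, 4 without WT_chow replicate 2, 7 without WT_HFD replicate 1 or 3, 9 without WT_chow replicate 4). It gave 20 to 25 for dKO against WT on chow, 4 to 10 on HFD (4 without WT_HFD replicate 1, 3 or 4 or without dKO_HFD replicate 4), 1 to 3 for IL4KO against WT on chow and 0 on HFD, 21 to 24 for dKO against IL4KO on chow and 0 to 13 on HFD. The interactions gave 6 to 15 (dKO minus WT), 0 (IL4KO minus WT) and 5 to 18 (dKO minus IL4KO); the cause was not tested. No paired analysis was possible because each library came from a separate mouse and no pairing of mice is given. With 3 or 4 mice a group, and Cfd near 0 in dKO_chow, fold changes of rare genes are imprecise.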

Other observations

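Cfhr2, a factor H-related gene outside the 43, was higher in both knockouts than in WT on both diets. It stood at 676.4, 693.9, 608.9 and 609.7 CPM in dKO_HFD, 542.9, 450.1, 527.9 and 486.4 CPM in dKO_chow, 576.6, 437.1 and 678.6 CPM in IL4KO_HFD and 735, 709.8, 694.2 and 746.9 CPM in IL4KO_chow. WT_HFD held 180.4, 231, 220.4 and 225.9 CPM and WT_chow 246.8, 245.5, 280.6 and 267.7 CPM, below every knockout library. The log2 fold changes were 1.59 in dKO against WT on HFD (FDR 1.69e-09), 0.95 in dKO against WT on chow (FDR 1.51e-06), 1.40 in IL4KO against WT on HFD (FDR 5.04e-08) and 1.47 in IL4KO against WT on chow (FDR 9.22e-09). The dKO and IL4KO comparisons on a diet share their WT libraries. Reads of the factor H-related genes, which are near copies of each other, are uncertain.

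Saa1, an acute phase gene chosen after its values were seen, was uneven within groups. It stood at 107.5, 69.73, 100.7 and 1808 CPM in dKO_HFD, at 86.99, 103.8, 711.7 and 22.15 CPM in IL4KO_chow and at 42.55, 527, 17.66 and 26.97 CPM in WT_chow. In 4 of the 6 groups (dKO_HFD, IL4KO_HFD, IL4KO_chow and WT_chow) the library highest for Saa1 was also the highest for Fga.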
